A study of Mus musculus with 4 samples.

Results

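The Bcl2 family of survival and cell death genes was examined for H3K9me3, the trimethylated form of lysine 9 of histone H3 that marks heterochromatin, in mouse CD8+ T cells. The 10 genes were chosen by name, with earlier results of these data known. They are Bcl2, Bcl2l1, Bcl2l2, Mcl1, Bax, Bak1, Bid, Bcl2l11, Bmf and Bcl2l14, of 20665 protein-coding genes on the autosomes. Around each gene, the gene body and 100 kb on each side were searched for islands, which are runs of enriched sequence joined into 1 region. These 10 windows span 2.40 Mb and held 22 of the 47553 day 3 islands and 26 of the 19989 day 0 islands. The gene set holds genes that promote death as well as genes that promote survival.

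The cells came from wild-type C57BL/6 mice, and each day is represented by 1 native ChIP library, made from chromatin that was cut with micrococcal nuclease and not cross-linked. The day 3 cells had been stimulated in culture through CD3 and CD28, by antibodies, in the presence of interleukin-2, and the day 0 cells were naive. The sources used here do not say how many mice stand behind each library, and an island list carries no expression with which to check the cell type. With 1 library per day there was no replicate and no test between days, so each difference below is a difference between these 2 libraries. The input libraries were not analysed here.

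Proteins of the Bcl2 family decide whether the outer membrane of the mitochondrion is opened, which releases cytochrome c and starts the caspases. Survival proteins such as Bcl2, Bcl-xL and Mcl1 hold the pore formers Bax and Bak in check, and the BH3-only proteins, such as Bim and Bid, bind the survival proteins or activate the pore formers. In T cells, interleukin-7 and interleukin-2 signals maintain Bcl2 and Mcl1, and Bim drives the death of activated cells when the response ends.

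The 2 lists differ in the reads they hold and in the density of their islands, while the total depth and the threshold behind each are not known. The islands held 10423178 reads on day 3 and 3402787 on day 0, the median read density was 52.9 and 34.1 reads per kb, and the least dense island held 34.1 and 23.6 reads per kb. These densities are not corrected for depth. Of the 26 day 0 islands around the family, 10 were less dense than any day 3 island. This is not particular to the family: the median of the whole day 0 list (34.06) lay under the lowest day 3 density (34.11). An island listed on day 0 alone therefore does not show a loss of the mark. A region without an island only lacks a region that passed the authors' threshold. All of the 10 genes lie on autosomes, and the comparison with other genes is limited to autosomes because the X chromosome carried 3 islands on day 3 and 1 on day 0.

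Islands covered 91.8 kb of the 10 windows on day 3, against 128.5 kb on day 0, or 3.82% and 5.35% of their length. Bcl2l1 and Bcl2l2 had the largest differences toward day 0, and this pair was left out after seeing the data. Without the pair the sum was 83.2 kb on day 3 and 77.9 kb on day 0. Bcl2 had the largest difference the other way. Without Bcl2 alone, the sum on day 3 less that on day 0 was -53.4 kb. Over all autosomal protein-coding genes the order was the other way, with 6.37% of the summed windows covered on day 3 and 4.24% on day 0. The median share of a window was closer, at 2.35% on day 3 and 3.95% on day 0 in the family. Over all these genes it was 3.35% and 2.90%. An island was present in 8 of the 10 windows on day 3 and in 9 on day 0, and 71.4% and 72% of all such genes had one. The covered length was larger on day 3 in 2 genes, Bcl2 and Mcl1, and larger on day 0 in 7. Bak1 had no island in its window on either day. A gene was counted as differing between days when one day covered at least 2 times as much of its window as the other and at least 1 kb. By this measure none of the 10 genes was covered more on day 3, against 30.8% of all genes. Bcl2 and Mcl1 fell just short of the cut, with ratios of day 3 over day 0 of 1.85 and 1.90. Bcl2l1, Bcl2l2, Bax, Bid and Bmf, or 5 of 10, were covered more on day 0, against 21.2% of all genes. The signs for Bcl2, Mcl1, Bid and Bcl2l14 depended on the islands or the window counted, as given with each gene, and with flanks of 50 kb neither Bax nor Mcl1 had an island on either day.

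**Figure D1:**
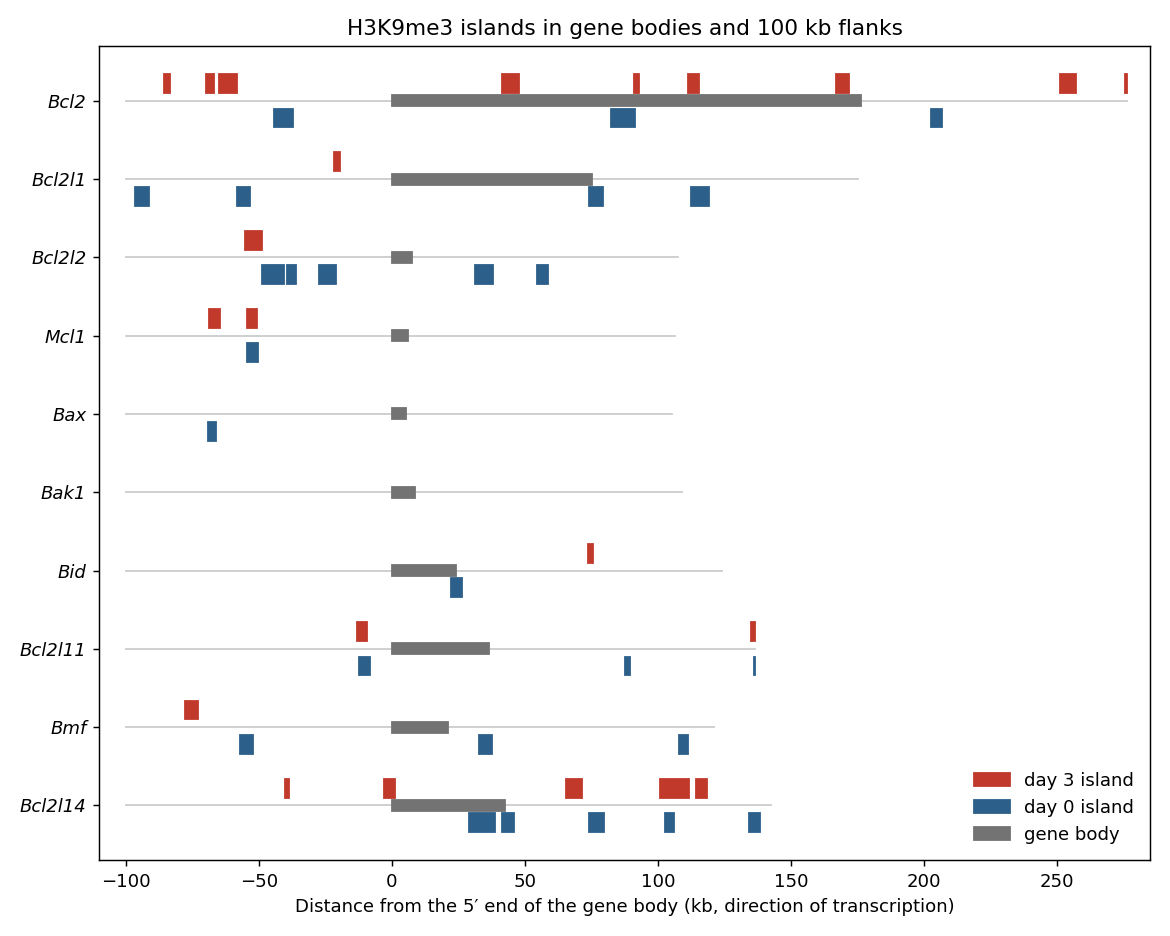
Islands in the window of each gene, drawn along the direction of transcription; the x axis is the distance in kb from the 5′ end of the gene body, red blocks are day 3 islands, blue blocks are day 0 islands and grey bars are gene bodies. Most islands lie in the flanks, Bcl2 is the gene with the most day 3 islands (9), and the Bak1 window is empty.

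In gene bodies, islands were present in 2 genes on day 3 (Bcl2 and Bcl2l14) and in 4 on day 0 (the same 2 with Bcl2l1 and Bid). Across all genes the body held an island in 28.7% on day 3 and in 24% on day 0. This share depends on length. Among genes with bodies under 10 kb, 6.63% had one on day 3 and 3.70% on day 0, and among bodies of 20 kb or more 51.0% and 44.8%. Bcl2l2, Mcl1, Bax and Bak1 have bodies under 10 kb and had no island in the body on either day. The other 6 members have bodies of 20 kb or more, and of these Bcl2l11 and Bmf had no island in the body on either day.

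In the windows of the 4 survival protein genes, 52.8 kb was covered on day 3 against 74.4 kb on day 0, by 13 islands on each day. Bcl2 (mm10, chr1:106538176-106714290, minus strand) encodes the founding survival protein of the family. Its window held 9 islands with 2060 reads on day 3 and 3 islands with 615 reads on day 0, and the covered length was 36.2 kb and 19.6 kb, a ratio of 1.85. Of this, 17.4 kb on day 3 against 8.80 kb on day 0 lay in the gene body, or 9.88% and 4.997% of it. The larger day 3 length came from the outer flanks and the body. With flanks of 50 kb the order turned, with 17.4 kb on day 3 against 19.6 kb on day 0, and with flanks of 200 kb it was 81.5 kb and 23.2 kb. When only the 19989 day 3 islands richest in reads were counted, the Bcl2 window was covered over 23.4 kb on day 3, and the excess over day 0 fell to 3.80 kb, against 16.6 kb with all islands. With the densest day 3 islands taken up to the total covered length of day 0, it was 20.6 kb on day 3 against 19.6 kb on day 0. Both of these cuts remove day 3 islands only, so they could not raise the excess. When each list was limited to islands of at least its median density, 20.6 kb was covered on day 3 against 10.8 kb on day 0.

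The 4 day 3 islands in the Bcl2 body started 41.5, 91.1, 111.3 and 166.7 kb into the gene. They held 292, 122, 211 and 204 reads, or 45.6, 67.8, 50.2 and 40.8 reads per kb. Only the island at 91.1 kb, which is 1.80 kb long, exceeded the median density of the day 3 list (exact 95% Poisson interval of its count, 101 to 146 reads). The island at 166.7 kb, near the 3′ end of the gene, stood at percentile 0.617 of the list by density. The single day 0 island in the body spans 8.80 kb from 82.5 kb into the gene. It held 230 reads (interval 201 to 262), or 26.1 reads per kb, and stood at percentile 0.213 of the day 0 list. It shares 0.2 kb with the day 3 island at 91.1 kb, the only stretch of the Bcl2 window covered on both days. Outside the body, the day 3 islands 58.3 and 66.7 kb upstream lie over Vps4b, which encodes an ATPase of the ESCRT machinery, and the day 0 island 37.1 kb upstream lies over Kdsr, which encodes an enzyme of sphingolipid synthesis.

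The day 3 island near the 3′ end of Bcl2 also spans the only microRNA found inside the gene in the RefSeq table (GRCm38.p6), mmu-miR-3473f. It is transcribed in the same direction as Bcl2, at chr1:106546536-106546555 on the minus strand. It is shown because it lies under an island in the body of Bcl2, with its seed, bases 2 to 8, in capitals.
mmu-miR-3473f: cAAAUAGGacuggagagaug

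Bcl2l1 (chr2:152758732-152833803, minus strand), which encodes Bcl-xL, had the opposite order to Bcl2. In its window, 1 island of 2.20 kb stood on day 3 against 4 islands with 21.4 kb in all on day 0. The day 3 island lies 19.4 kb upstream, over the spindle assembly gene Tpx2, and held 125 reads or 56.8 reads per kb. The day 0 islands lie 37.3 kb downstream, across the 3′ end of the gene, 53.4 kb upstream (also over Tpx2) and 91.4 kb upstream, with 28.9, 32.8, 35.8 and 33.8 reads per kb. None of them overlaps the day 3 island. The island at the 3′ end covers 0.869 kb of the gene body and also reaches Cox4i2, a subunit gene of cytochrome c oxidase. With a density limit, which counts only islands of at least the median density of their list, 2.20 kb was left on day 3 against 4.80 kb on day 0.

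Bcl2l2 (chr14:54883366-54890858, plus strand) encodes the survival protein Bcl-w. It had the largest share of its window covered on day 0 of the 10 genes, 14.1% or 29.2 kb in 5 islands, which stood at percentile 96.7 of all autosomal protein-coding genes. On day 3 the share was 3.08% or 6.40 kb in 1 island, at percentile 48.4. The difference, day 3 less day 0, was -22.8 kb, at percentile 0.982 of all genes. The day 3 island ends 49.0 kb upstream of the gene, over the meiosis gene Rnf212b, and held 294 reads or 45.9 reads per kb. A day 0 island of 8.60 kb begins at the next base, with 272 reads or 31.6 reads per kb, so the Rnf212b region was listed on both days without a shared base. The other day 0 islands lie over Rnf212b, over Homez 21.0 kb upstream, over the adaptor gene Efs 23.7 kb downstream, and over Cmtm5 and the cardiac myosin gene Myh6 47.1 kb downstream. The island over Efs was the least dense of the family, with 25.6 reads per kb. With the day 3 islands chosen by density, to equal covered length or by the density limit, no day 3 island was left around Bcl2l2, while 29.2 and 14.0 kb were covered on day 0.

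Mcl1 (chr3:95656944-95663179, plus strand) encodes a short-lived survival protein that T cells need at every stage. On day 3, 2 islands covered 8 kb of its window, and on day 0 a single island covered 4.20 kb. Both days had an island over the neighbouring gene Golph3l, 50.7 kb upstream on day 3 and 50.1 kb upstream on day 0, and the 2 islands share 3.60 kb. They held 206 reads or 54.2 reads per kb on day 3 and 162 reads or 38.6 reads per kb on day 0. The other day 3 island, 64.5 kb upstream with 48.8 reads per kb, was below the median density of its list. Without it, as under the density limit, the window was covered over 3.80 kb on day 3 against 4.20 kb on day 0.

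The pore former genes were the least covered. Bax (chr7:45461695-45466903, minus strand) had no island in its window on day 3 and 1 on day 0, which covered 3.00 kb over Plekha4, 65.9 kb upstream, with 111 reads or 37.0 reads per kb. The nearest day 3 island lay 850 kb from the gene. Bak1 (chr17:27019812-27028627, minus strand) had its nearest islands 289 kb away on day 3 and 344 kb away on day 0. Among all genes with bodies under 10 kb, the class that holds Bax and Bak1, the median distance to the nearest island was 51.0 kb on day 3 against 65.9 kb on day 0, counting genes with an island in the body as 0. The day 0 distance of Bax was thus at the median of its class.

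**Figure D2:**
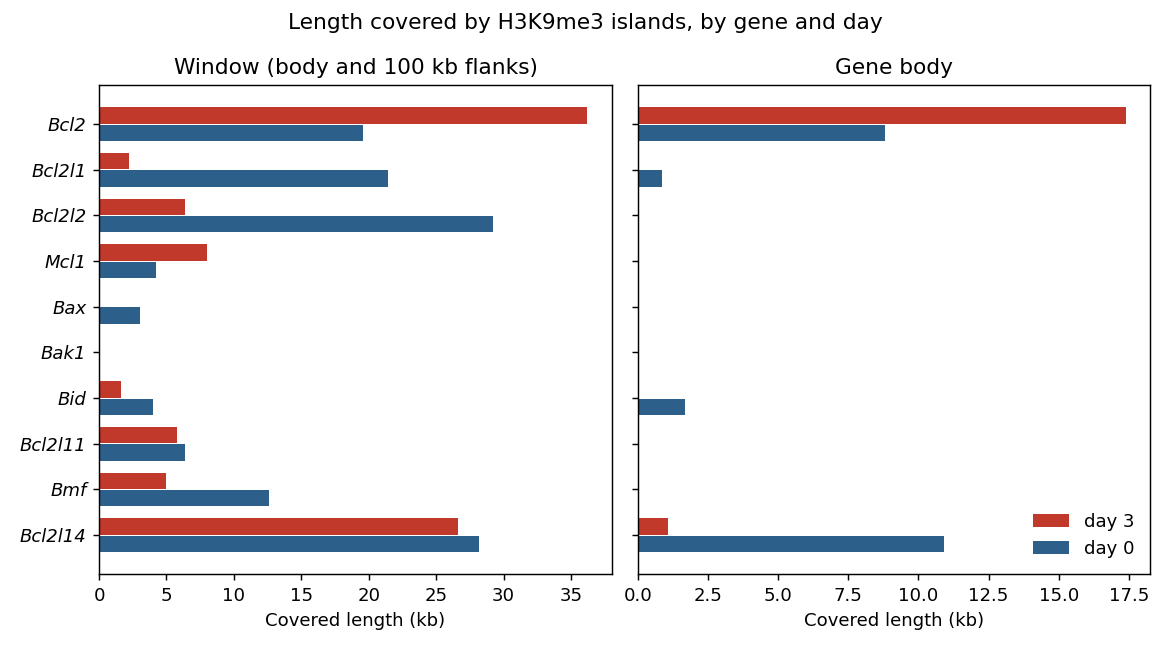
Length covered by islands in the window (left) and in the gene body (right) of each gene, in kb; red bars are day 3 and blue bars are day 0, with 1 library per day and no error bars for that reason. Bcl2 has the longest red bars (36.2 and 17.4 kb), and Bcl2l2 has the longest blue bar in the window (29.2 kb).

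In the windows of the 3 BH3-only genes, 12.3 kb was covered on day 3 against 22.9 kb on day 0, by 4 and 7 islands. Bid (chr6:120893119-120917062, minus strand) encodes the protein that carries death receptor signals to the mitochondrion once cleaved by caspase-8. On day 3 its window held 1 island of 1.60 kb, 49.9 kb downstream, with 101 reads or 63.1 reads per kb. On day 0 it held 1 island of 4.00 kb across the 3′ end of the gene, with 142 reads or 35.5 reads per kb, of which 1.68 kb or 7.02% of the body lay inside Bid. Both islands also lie in Bcl2l13, a family member that neighbours Bid, and they are 47.6 kb apart. With flanks of 200 kb the order turned, with 30.1 kb on day 3 against 21.0 kb on day 0.

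Bcl2l11 (chr2:128126038-128162547, plus strand), which encodes Bim, had nearly the same covered length on both days, 5.75 kb on day 3 against 6.35 kb on day 0. With flanks of 200 kb the lengths were apart, at 12.8 kb on day 3 against 23.8 kb on day 0. An island over the upstream neighbour Acoxl was listed on both days, 9.24 kb from the gene on day 3 and 8.24 kb on day 0, with 3.20 kb in common. It held 214 reads or 53.5 reads per kb on day 3 and 158 reads or 37.6 reads per kb on day 0. The ratio of these densities, 1.42, is not corrected for depth. Within its own list the island stood lower on day 3, at percentile 54.4 by density, than on day 0, at percentile 81.0. It is the flank island closest to any of the 10 genes. A second shared region, with 1.40 kb in common, crosses the outer edge of the downstream flank. Only 0.347 kb of the stretch in common lies inside the window. Between the 2 shared regions, a day 0 island of 1.80 kb lies 51.1 kb downstream of the gene. It held 100 reads (interval 81.4 to 122) or 55.6 reads per kb, which is 1.63 times the median of the day 0 list and stood at percentile 99.8 of it. No day 3 island lay within 45.4 kb of it. It was also the shortest day 0 island of the family. The shortest day 3 islands of the family, of 1.60 and 1.80 kb, stood high as well, at percentiles 87.9 to 95.8 of their list.

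Bmf (chr2:118528757-118549686, minus strand) encodes a BH3-only protein tied to the cytoskeleton. Its window held 1 island of 5 kb on day 3, against 3 islands with 12.6 kb in all on day 0. The day 3 island lies 72.7 kb upstream with 45.2 reads per kb, and a day 0 island 52.3 kb upstream with 34.6 reads per kb. Both are in the spindle checkpoint gene Bub1b and are 15.8 kb apart. The other day 0 islands lie 12.0 kb downstream, over no gene, and 87.0 kb downstream, over the stress kinase gene Eif2ak4, with 31.7 and 37.4 reads per kb.

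Bcl2l14 (chr6:134396329-134438724, plus strand) encodes Bcl-G, a family member whose part in cell death is less settled. Its window was covered to a similar extent on both days, 26.6 kb or 11.0% on day 3 and 28.2 kb or 11.6% on day 0, by 5 islands each. The islands lay in different places. On day 3 an island of 4.00 kb with 205 reads (interval 178 to 235), or 51.3 reads per kb, ran from -2.93 to 1.07 kb relative to the 5′ end of the gene. It also lies over the long noncoding RNA gene 4933406J09Rik. On day 0 no island reached the 5′ end. An island of 10 kb with 301 reads or 30.1 reads per kb began 28.9 kb into the gene, and another of 4.40 kb crossed the 3′ end. The body was therefore covered over 1.07 kb or 2.53% on day 3 and over 10.9 kb or 25.8% on day 0. Downstream, both days had islands over Lrp6, which encodes a co-receptor for Wnt proteins, and one pair of them shares 3.60 kb. With the density limit, the Bcl2l14 window was covered over 18.4 kb on day 3 against 7.80 kb on day 0, since the 2 day 0 islands in the body and the one nearest downstream were below the median density of their list. The day 3 island at the 5′ end was below the median as well, at 0.970 times it.

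The 5′ end of Bcl2l14 was the only start of the family under an island. RefSeq gives 16 promoter windows for the 10 genes, each running from 250 bases before a start to 50 bases after it. Of these, 1 was touched by an island on day 3 and none on day 0, against 2.98% and 1.9% of 20085 promoter windows of autosomal protein-coding genes. The second start listed for Bcl2l14 lay 16.8 kb from the nearest day 3 island and 10.7 kb from the nearest day 0 island. The Bcl2 start lay 41.4 kb from the nearest day 3 island and 36.9 kb from the nearest day 0 island. The bases upstream of both starts are shown because one start lay under an island and the other, of the gene with the most day 3 islands, did not. The sequences are from RefSeq (GRCm38.p6), at chr6:134396079-134396328 on the plus strand for Bcl2l14 and chr1:106714291-106714540 on the minus strand for Bcl2. Capitals mark CG, the dinucleotide at which DNA is methylated.
Bcl2l14 promoter: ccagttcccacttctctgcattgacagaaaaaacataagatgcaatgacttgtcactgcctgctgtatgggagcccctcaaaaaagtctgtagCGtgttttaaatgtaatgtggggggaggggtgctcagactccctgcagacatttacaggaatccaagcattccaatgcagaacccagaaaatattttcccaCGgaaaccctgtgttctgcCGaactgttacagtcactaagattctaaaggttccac
Bcl2 promoter: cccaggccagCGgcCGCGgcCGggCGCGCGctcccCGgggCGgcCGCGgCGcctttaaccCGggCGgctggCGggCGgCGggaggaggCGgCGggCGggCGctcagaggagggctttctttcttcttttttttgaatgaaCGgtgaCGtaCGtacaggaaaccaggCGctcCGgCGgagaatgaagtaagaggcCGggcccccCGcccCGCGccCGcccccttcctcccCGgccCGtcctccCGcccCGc

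These 250 bases hold 3 CG in Bcl2l14 and 36 in Bcl2, with a G and C content of 45.6% and 74.8%. Over all promoters the median was 10 CG, 28.1% had 3 or fewer and 97.1% had 36 or fewer. Of the 5649 promoters with 3 or fewer, day 3 islands touched 7.10% and day 0 islands 4.21%, and of the 14436 with more they touched 1.37% and 0.991%. The cut at 3 CG equals the count of the Bcl2l14 promoter, the one under an island, and was not set independently of it. Within the family, low counts also stood at starts without an island. A Bmf start also had 3 CG and a Bcl2l1 start had none, and the nearest islands to them lay 77.6 and 24.5 kb away on day 3 and 27.7 and 58.5 kb away on day 0. The start of Mcl1 had 26 CG, and those of Bcl2l11 had 24 and 30.

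The density of the islands around the family was close to that of the lists as a whole. The 22 day 3 islands had a median of 54.5 reads per kb (range 40.8 to 67.8), and 13 reached the median of the day 3 list. The 26 day 0 islands had a median of 35.3 reads per kb (range 25.6 to 55.6), and 16 reached the median of the day 0 list. Of the 5 islands in gene bodies on each day, 4 were below the median of their list, and the exceptions were in Bcl2 on day 3 and in Bid on day 0. Those below stood at 0.772 to 0.970 times the median on day 3 and at 0.767 to 0.974 times it on day 0. The same share over all islands in gene bodies is not given here, so no trait of the family is read from this count. On day 3, 5 of the 22 (22.7%) overlapped a day 0 island, against 14.9% of the whole day 3 list, and on day 0, 5 of the 26 (19.2%) overlapped a day 3 island, against 33.6% of the whole day 0 list. The shared islands were in the windows of Bcl2, Mcl1, Bcl2l11 (2 pairs) and Bcl2l14. Inside the windows, 10.9 kb in all was covered on both days.

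**Figure D3:**
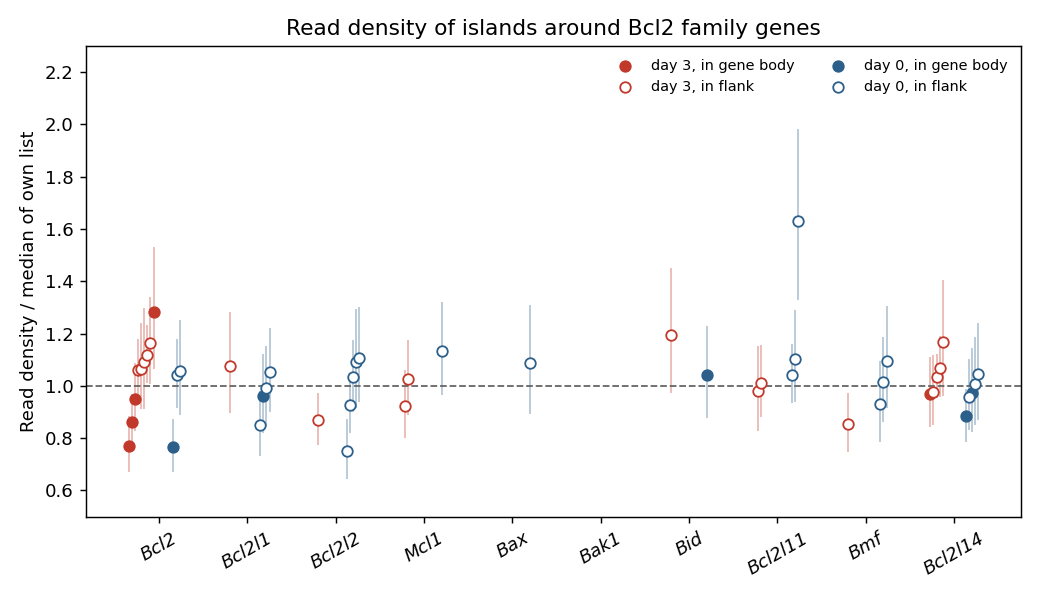
Read density of each island divided by the median of its own list (y axis), by gene (x axis); red is day 3, blue is day 0, filled points are islands in the gene body, open points are islands in the flanks, and bars are exact 95% Poisson intervals of the read count. The point farthest above the dashed line at 1 is the day 0 island downstream of Bcl2l11, at 1.63.

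With distance from the gene, the 2 days differed in where coverage lay. Within 25 kb of the gene bodies, 2.21% of the sequence was covered on day 3 and 4.80% on day 0. From 25 to 50 kb the values were 1.36% and 9.23%, and from 50 to 75 kb they were 8.26% and 4.63%. Over all genes the share was nearly flat, at 5.22% to 5.90% on day 3 and 3.73% to 4.18% on day 0 across the 4 distances. In the family these shares rest on a few islands each. Bcl2l2 alone gave 22.8 of the 46.2 kb covered on day 0 at 25 to 50 kb, and Bcl2 and Bcl2l14 gave 10.03 and 14.1 of the 41.3 kb covered on day 3 at 50 to 75 kb.

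**Figure D4:**
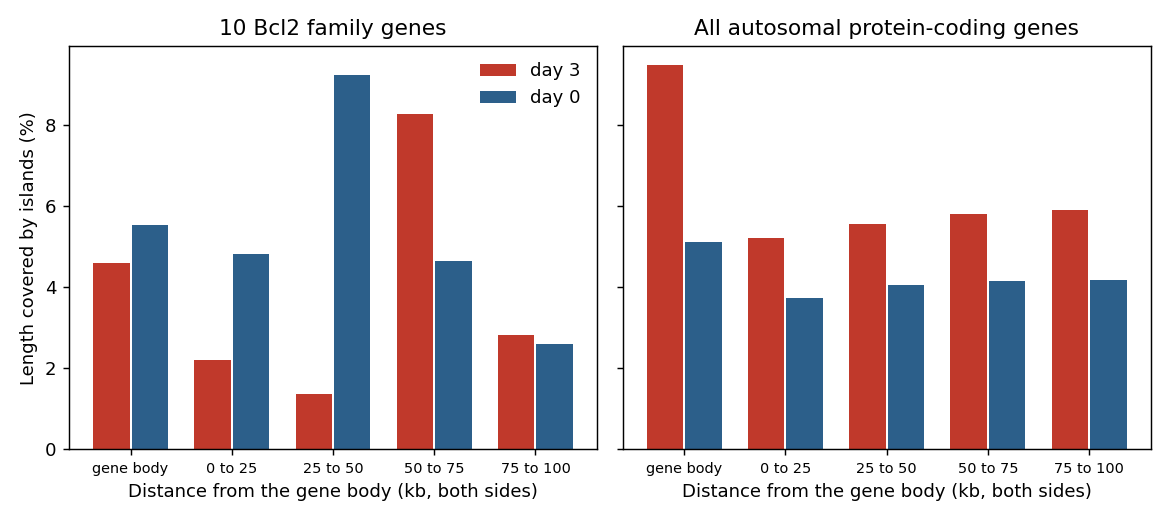
Share of sequence covered by islands (y axis, %) in the gene body and at 4 distances on both sides of it (x axis, kb), for the 10 family genes (left) and all autosomal protein-coding genes (right); red bars are day 3 and blue bars are day 0. The family is lowest on day 3 at 25 to 50 kb (1.36%), where it is highest on day 0 (9.23%).

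Of 57 further genes of the cell death pathway, 54 are autosomal, and the X-linked Xiap, Huwe1 and Usp9x had no island in their windows on either day. Of the 54, the body held an island in 9 (16.7%) on day 3 and in 8 (14.8%) on day 0, where all genes had 28.7% and 24%, and 41 had none on either day. In their windows, 11 (20.4%) were covered at least 2 times as much on day 3, against 30.8% of all genes. Another 14 (25.9%) were covered at least 2 times as much on day 0, against 21.2% of all genes. The median covered length of these 54 windows was 3.60 kb on day 3 and 5.60 kb on day 0, where all genes had 7.80 and 6.80 kb. These shares were not split by gene length. Windows of neighbouring genes, such as Birc2 and Birc3, overlap, so the same island can count for several genes.

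By branch, 3 of the 15 other Bcl2 family genes had an island in the body on day 3, against 4 on day 0. These are 20% and 26.7%, near the shares over all genes, and the counts in the other branches, of 2 or fewer, are too small to set against them. The 5 genes were Bcl2l13, a mitochondrial family member, with 1.60 kb on day 3 against 2.04 kb on day 0, Bnip3l, a mitophagy receptor, with 0.563 and 4.40 kb, Bcl2l10 with 0.0430 kb on day 3 only, Bok with 0.770 kb on day 0 only, and Bcl2l15 with 9.42 kb on day 0 only. Of 11 caspase and apoptosome genes, Apaf1, the scaffold that activates caspase-9, was covered over 8.09 kb on day 3 only, and Casp9 over 0.378 kb on day 0 only. Of 10 inhibitor of apoptosis genes, Birc6, which encodes a giant ubiquitin ligase, had 11 islands over 38.0 kb of its body on day 3, against 5 islands over 30 kb on day 0, more than any of the Bcl2 family genes studied, and Naip2 was covered over 3.12 kb on day 0 only. Of 7 genes of the death receptor branch, Fas was covered over 4.40 kb on day 3 only, and the kinase gene Ripk1 over 7.40 kb on day 3 against 9.60 kb on day 0. Of 14 regulators, Bag4 was covered over 4.66 kb and the mitochondrial channel gene Vdac3 over 1.40 kb, both on day 3 only.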

How the data were processed

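H3K9me3 native ChIP-seq of CD8+ T cells was available as 2 lists of significant islands, 1 each for day 3 and day 0. Per the labels' protocols, each ChIP used 4000000 cells and about 100000000 paired-end reads of 150 bases were sequenced per library. The tools and the build were Bowtie2, SICER version 1.1 and mm10, per the submitters' processing notes. Threshold, gap size, handling of duplicates or of reads with several matches, and use of input are not given in the sources available here, and each can change which islands were listed. The authors deposited 1 whole number per island, read here as a raw read count that is not scaled for depth, length or input. All island lengths were multiples of 200 bp.

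Starts were converted to 1-based coordinates. Covered length and overlap (minimum 1 bp) were computed with Python 3.11.15, numpy 2.4.6 and pandas 2.3.3 and tested on made-up islands. Reads of an island count whole where the window cuts it. Gene bodies came from a RefSeq table of GRCm38.p6, the assembly behind mm10, which gives no exons, and strands from its promoter table. Intervals on counts are exact 95% Poisson intervals (scipy 1.17.1). They cover counting error only, and reads of PCR libraries are not independent molecules. The total depth of each library is unknown. No test was made, since each day had 1 library. All 10 members were named, with neighbours whose body an island overlaps, and pathway genes with an island in the body. The members and lists were chosen with earlier results of these data known. The 7 alternatives changed the islands, the window or the overlap counted, and another, added after seeing the data, left out a pair of members.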

Additional observations from a re-analysis of the deposited data

How the results depend on the processing

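The summed coverage of the 10 windows was lower on day 3 than on day 0 under all 7 alternatives. Those that cut only the day 3 list could not turn this order, since they remove day 3 islands and leave day 0 whole. An alternative chosen after seeing the data turned the order: without Bcl2l1 and Bcl2l2, the sum was 83.2 kb against 77.9 kb. With any 1 member left out, the sum stayed lower on day 3, by differences of -53.4 to -14.0 kb. The sum was 71.6 kb against 128.5 kb with the day 3 list cut to the 19989 islands with the most reads, 52.4 kb against 128.5 kb with the densest day 3 islands at equal covered length, and 50.6 kb against 62.9 kb with islands of at least the median density. It was 36.3 kb against 92.5 kb with flanks of 50 kb, 201.2 kb against 218.8 kb with flanks of 200 kb, and 18.5 kb against 22.3 kb in gene bodies alone. In the body alone, an island was found for 2 members on day 3 and for 4 on day 0. This count came to 1 on day 3 with equal covered length, 1 on each day with the density limit, and 1 on day 3 and 2 on day 0 when at least 50% of an island had to lie inside. The difference for Bid, day 3 less day 0, turned to 9.08 kb with flanks of 200 kb. The causes were not tested. No paired analysis was possible because each day has 1 library. With 1 library per day, neither biological nor technical spread is known, and the unknown library depth limits every comparison of densities between days.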
